A study of Homo sapiens with 4 samples.

Results

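The interferon response genes are 33 genes that interferons induce or through which interferons signal, examined here across 4 sorted subpopulations of the lung cancer line PC14, which derives from a human tumour of the non-small-cell type. They were chosen by name, and all of their probe sets were read from the deposited table. For 32 of the 33 genes, out of 19775 genes named in all, the platform annotation named at least 1 probe set. STAT2, a partner of IRF9 in interferon signalling, was not analysed here. The 32 genes had 58 probe sets, of which 22 lay above the floor of all 4 arrays, 8 above that of some arrays and 28 above none.

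The 4 subpopulations were E-cadherin-low CD133-high, E-cadherin-low CD133-low, E-cadherin-high CD133-high and E-cadherin-high CD133-low cells, written E-CD133+, E-CD133-, E+CD133+ and E+CD133- in the labels. All came from this line, grown in culture with no drug or interferon named in the labels. Cells were sorted by fluorescence for E-cadherin and then for green fluorescent protein, which a lentiviral reporter carried in all 4 subpopulations expresses from the P1 promoter of the CD133 gene. Each subpopulation was hybridised to 1 expression array, so no value below has a replicate error and no difference between conditions could be tested against one.

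Interferons are secreted when a cell senses foreign nucleic acid, and they act on receptors such as the one that holds IFNAR1 (type I) or IFNGR1 (type II). Kinases of the JAK family then activate STAT proteins, which enter the nucleus with IRF9 or alone and bind elements before their target genes. The induced proteins block viral entry, RNA translation and replication, and some of them sense RNA or damp the signal again. Epithelial cells and tumours derived from them often keep part of this programme active without added interferon.

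The element bound with IRF9 is the interferon-stimulated response element, searched here as GAAA, any 2 bases and GAAA on both strands of a window from 250 bases before to 50 after each start site in RefSeq (GRCh38.p14). The element of the type II signal, the gamma-activated site, was searched in the same way as TTC, any 3 bases and GAA. The response element occurred in 1255 of 35116 windows of all genes (3.57%), and the gamma-activated site in 2689 (7.66%). Of 26 members with a window, 17 held the response element (65.4%) and 8 the gamma-activated site (30.8%). Counted by gene, since some have several windows, the shares over all genes were 4.38% and 9.38%. The 250 bases before the start site are printed for 5 members, chosen after their values were seen because they span the range of results below, with every match to the response element in capitals on either strand.

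IFI6, chr1:27672193-27672442, minus strand: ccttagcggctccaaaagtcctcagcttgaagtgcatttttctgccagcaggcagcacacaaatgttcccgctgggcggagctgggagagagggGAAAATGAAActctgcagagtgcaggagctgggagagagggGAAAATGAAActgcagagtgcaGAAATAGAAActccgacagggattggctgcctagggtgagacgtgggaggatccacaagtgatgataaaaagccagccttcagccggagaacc
ISG20, chr15:88638766-88639015, plus strand: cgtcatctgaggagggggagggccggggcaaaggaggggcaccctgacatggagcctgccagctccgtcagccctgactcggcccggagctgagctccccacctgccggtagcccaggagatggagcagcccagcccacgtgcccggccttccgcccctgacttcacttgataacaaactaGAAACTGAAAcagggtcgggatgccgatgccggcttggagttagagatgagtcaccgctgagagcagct
ISG15, chr1:1013247-1013496, plus strand: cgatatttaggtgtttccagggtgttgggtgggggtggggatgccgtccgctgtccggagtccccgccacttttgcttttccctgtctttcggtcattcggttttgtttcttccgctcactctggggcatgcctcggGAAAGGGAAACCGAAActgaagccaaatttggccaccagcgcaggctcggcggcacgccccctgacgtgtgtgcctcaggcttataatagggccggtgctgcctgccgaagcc
IFITM3, chr11:320861-321110, minus strand: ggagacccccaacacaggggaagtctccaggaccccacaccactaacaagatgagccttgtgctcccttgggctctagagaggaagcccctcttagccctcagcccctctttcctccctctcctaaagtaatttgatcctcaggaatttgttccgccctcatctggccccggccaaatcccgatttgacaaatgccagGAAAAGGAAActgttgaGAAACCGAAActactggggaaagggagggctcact
IFIT1, chr10:89392373-89392622, plus strand: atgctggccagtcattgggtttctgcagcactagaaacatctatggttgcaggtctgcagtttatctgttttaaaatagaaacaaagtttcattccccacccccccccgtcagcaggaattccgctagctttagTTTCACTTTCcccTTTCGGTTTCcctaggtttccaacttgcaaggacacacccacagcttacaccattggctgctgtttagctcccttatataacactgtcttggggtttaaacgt

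IFI6, which was higher in CD133-high cells in both pairs, held 3 matches, and ISG20, with the same pattern, held 1. ISG15 and IFITM3, with 2 matches each, had larger CD133 ratios in E-cadherin-low than in E-cadherin-high cells. IFIT1 also held 2 matches, on the opposite strand, and its signal lay below the floor on all 4 arrays. The 2 matches of ISG15 overlapped by 4 bases. A match therefore went with several patterns of signal, and it occurred in 9 of 16 measured members and in 8 of 9 members below the floor on all arrays. A match is a description of the sequence and not evidence of binding.

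The values are deposited linear intensities per probe set. The floor was the 50th percentile of the probe sets on an array, a signal of 53.7 to 60.3, and was used because the table held no detection calls. Each gene was read from the brightest of its probe sets by mean log2 signal, and it counted as measured when that probe set exceeded the floor of 1 array or more. Of the 32 members, 21 were measured (65.6%, against 71.2% of all genes), 14 of them on all 4 arrays and 7 on some. Signals of different probe sets cannot be ranked against each other, so levels are compared only within a gene.

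**Figure D1:**
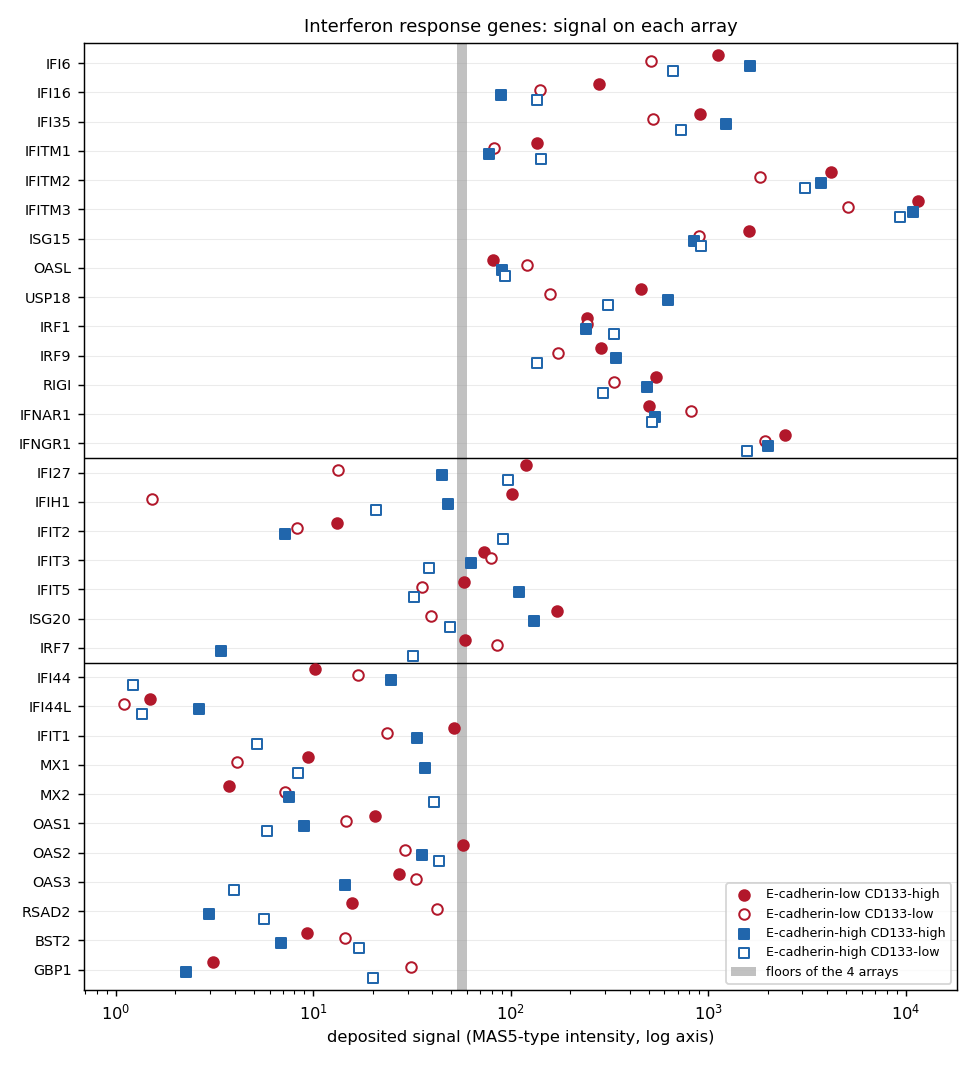
Deposited signal (log axis) of the representative probe set of each of 32 interferon response genes on each of the 4 arrays, with the floors of the arrays as a grey band. The upper block holds 14 genes above the floor on all arrays, the middle block 7 genes above it on some arrays, and the lower block 11 genes below it on all arrays.

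The 11 members below the floor on all arrays were largely genes known for strong induction by interferon. They were IFI44, IFI44L, IFIT1, MX1, MX2, OAS1, OAS2, OAS3, RSAD2, BST2 and GBP1. MX1 and MX2 are GTPases that trap viral capsids or nucleoproteins, and the OAS enzymes make the short oligoadenylates that switch on RNase L. RSAD2 (viperin) makes a chain-terminating nucleotide, BST2 (tetherin) holds budding virions at the cell surface, and GBP1 is a GTPase strongly induced by interferon gamma.

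MX1 read 9.4 in E-cadherin-low CD133-high, 4.1 in E-cadherin-low CD133-low, 36.8 in E-cadherin-high CD133-high and 8.4 in E-cadherin-high CD133-low cells. IFI44L read 1.5, 1.1, 2.6 and 1.4 on the same arrays in that order, and BST2 read 9.2, 14.4, 6.8 and 17.0. No direction was drawn from signals this low. The highest signal of any of the 11 was 57.2, that of OAS2 in E-cadherin-low CD133-high cells, just under the floor of 60.3 there. IFIT1 read 51.6 on the same array, also under that floor.

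Between 16 and 18 of the 32 members lay above the floor of an array, with 18 in E-cadherin-low CD133-high, 16 in E-cadherin-low CD133-low, 17 in E-cadherin-high CD133-high and 16 in E-cadherin-high CD133-low cells. Of all 19775 genes, between 12309 and 12459 lay above the floor of an array, so the count varied little for the members and for all genes alike.

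The CD133 comparison asks which genes go with reporter activity, once among E-cadherin-low and once among E-cadherin-high cells. IFI6, USP18 and ISG20 were at least 2-fold higher in CD133-high than in CD133-low cells in both pairs, and no member was at least 2-fold lower in both. The count is 3 of 21 measured members, where 345 of 14083 measured genes met the same rule (2.45%). For the lower direction the share over all genes was 1.12%.

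IFI6 encodes a small membrane protein of the endoplasmic reticulum and mitochondria that counters cell death and the replication of some viruses. It read 1114 in CD133-high cells against 514.8 in CD133-low cells of the E-cadherin-low state, and 1629.5 in CD133-high cells against 664.1 in CD133-low cells of the E-cadherin-high state. Both CD133-high arrays lay above both CD133-low arrays, by 2.16-fold and 2.45-fold. As in any RNA from a sorted bulk population, fewer expressing cells and less RNA per cell cannot be told apart here.

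USP18 encodes the protease that removes ISG15 from proteins and that also damps signalling at the type I receptor. Its signal was 455.0 in CD133-high cells against 158.2 in CD133-low cells of the E-cadherin-low state. In the E-cadherin-high state it was 627.4 in CD133-high cells against 309.7 in CD133-low cells. The groups did not overlap, and the folds were 2.88 and 2.03. The genome holds a near-identical copy, USP41P, and whether the probe set reads both was not tested. The second fold is close to the threshold, and after quantile normalization its log2 value was 0.95, so that USP18 no longer met the rule.

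ISG20 encodes an exonuclease that degrades RNA. It read 171.0 and 130.6 in the CD133-high arrays of the E-cadherin-low and E-cadherin-high states, against 39.6 and 49.0 in the CD133-low arrays. Since both CD133-low signals lay below the floor, the log2 ratios of 1.58 and 1.19 are lower bounds. Its other probe set read at most 15.8 and stayed below the floor on all arrays. With the floor at the 65th percentile, or with the mean over both probe sets, ISG20 no longer met the rule.

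Further members leaned the same way in both pairs without reaching 2-fold in each. IRF9, the DNA-binding partner of the STAT proteins at the response element, read 286.2 in CD133-high cells against 173.9 in CD133-low cells of the E-cadherin-low state, and 341.2 in CD133-high cells against 135.8 in CD133-low cells of the E-cadherin-high state. Its folds were 1.65 and 2.51.

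DDX58, named RIGI in the annotation, is the sensor of viral RNA with a triphosphate end. Its signal was 544.8 in CD133-high cells against 332.2 in CD133-low cells of the E-cadherin-low state. In E-cadherin-high cells it was 488.5 in CD133-high cells against 291.8 in CD133-low cells. All 3 of its probe sets had higher signals in CD133-high cells in both pairs, with log2 ratios of 0.53 to 1.51 in E-cadherin-low and 0.66 to 0.74 in E-cadherin-high cells.

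IFI35, which forms a cytoplasmic complex with NMI, read 909.5 in CD133-high cells against 526.8 in CD133-low cells among E-cadherin-low cells, and 1235 in CD133-high cells against 726.6 in CD133-low cells among E-cadherin-high cells. Its folds of 1.73 and 1.70 were nearly equal. At a threshold of 1.5-fold, 6 members were higher in both pairs, namely IFI6, IFI35, ISG20, USP18, IRF9 and RIGI, where the share over all measured genes was 6.63%. No member was lower in both pairs at that threshold (3.93% of all genes).

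**Figure D2:**
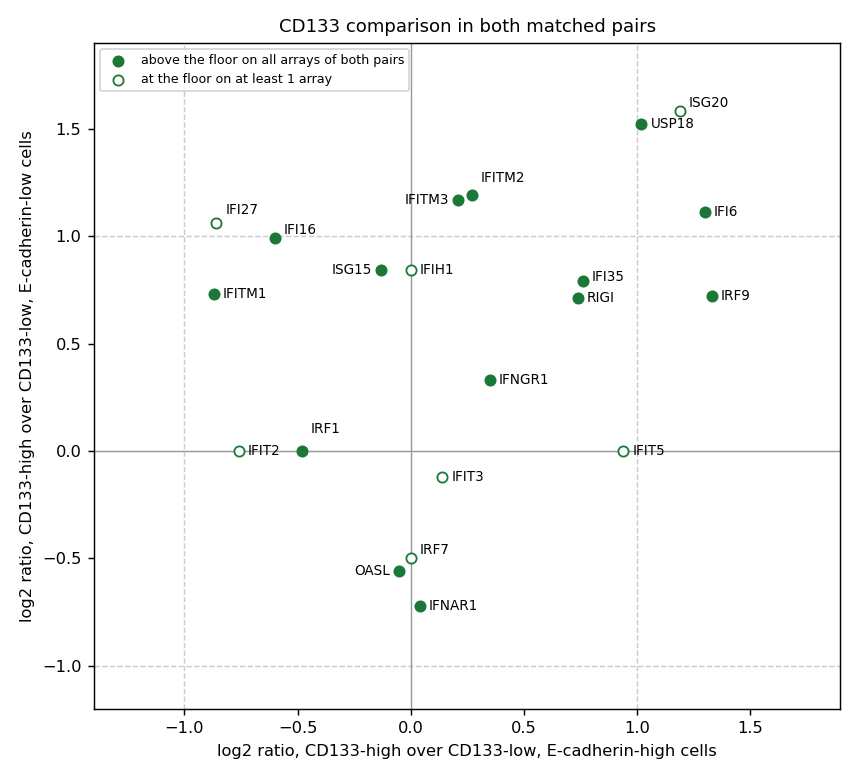
Log2 ratio of CD133-high over CD133-low cells among E-cadherin-high cells (horizontal axis) and among E-cadherin-low cells (vertical axis) for the 21 measured members. Open points were at the floor on at least 1 array, and dashed lines mark 2-fold. IFI6, USP18 and ISG20 lie beyond 2-fold on both axes. Of 6 members with opposite signs on the 2 axes, IFI16, IFI27 and IFITM1 pass 1.5-fold on both.

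The IFITM proteins sit in endosomal and surface membranes and restrict the entry of enveloped viruses. IFITM3 read 11512 in CD133-high cells against 5118 in CD133-low cells among E-cadherin-low cells, a fold of 2.25. Among E-cadherin-high cells it read 10889.6 in CD133-high cells against 9396 in CD133-low cells, a fold of 1.16. E-cadherin-low CD133-low cells stood apart with the low value, and the other 3 arrays lay close together.

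IFITM2 had the same order of arrays, with 4182 in CD133-high cells against 1838 in CD133-low cells of the E-cadherin-low state and 3727 in CD133-high cells against 3098 in CD133-low cells of the E-cadherin-high state. The probe sets of IFITM2 and IFITM3 are both marked by their IDs as open to related sequences, and these genes are near-identical paralogs, so their signals may share RNA. Whether they do was not tested. IFITM1 did not follow them. It read 136.4 in CD133-high cells against 82.5 in CD133-low cells of the E-cadherin-low state, but 77.5 in CD133-high cells against 141.4 in CD133-low cells of the E-cadherin-high state. The probe set of IFITM1 is likewise marked by its ID as open to related sequences. Its lowest signal, 77.5, was not far above the floor of 53.7 on that array.

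ISG15, the ubiquitin-like protein that is joined to other proteins, stood out on 1 array. It read 1607 in CD133-high cells against 897.9 in CD133-low cells of the E-cadherin-low state, and 846.5 in CD133-high cells against 923.3 in CD133-low cells of the E-cadherin-high state. The 3 other arrays lay between 846.5 and 923.3.

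IFIH1 (MDA5), a sensor of long double-stranded RNA, was above the floor in E-cadherin-low CD133-high cells alone, with 101.8 there. It read 1.5 in E-cadherin-low CD133-low, 48.3 in E-cadherin-high CD133-high and 20.7 in E-cadherin-high CD133-low cells. The fold in the E-cadherin-low pair was at least 1.78. Its other probe sets stayed below the floor on all arrays.

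IFI27, a small membrane protein, was above the floor on 2 arrays that share neither marker. It read 119.3 in CD133-high cells against 13.3 in CD133-low cells of the E-cadherin-low state, and 44.6 in CD133-high cells against 97.2 in CD133-low cells of the E-cadherin-high state. CD133-high cells were thus higher by at least 2.09-fold in the first pair and lower by at least 1.81-fold in the second.

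The IFIT proteins bind foreign RNA by its end and form complexes with each other. IFIT5 was above the floor in E-cadherin-high CD133-high cells alone, at 110.1, against 57.7, 35.5 and 32.3 in E-cadherin-low CD133-high, E-cadherin-low CD133-low and E-cadherin-high CD133-low cells. IFIT2 was above it in E-cadherin-high CD133-low cells alone, at 91.1, where its other probe set read 5.4. IFIT3 lay within 38.4 to 79.1 on all arrays, near the floor, with log2 CD133 ratios of -0.12 and 0.14 in E-cadherin-low and E-cadherin-high cells, the second a bound. IFIT5 and IFIT2 each passed the floor on 1 array, where the floors were 53.7 and 57.4, and IFIT1 passed it on none. No common direction could therefore be read from the 4 IFIT members.

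Of 14 members above the floor on all arrays, 8 had both CD133-high arrays above both CD133-low arrays (25.1% of 10891 such genes). These were IFI6, IFI35, IFITM2, IFITM3, USP18, IRF9, RIGI and IFNGR1. In 2, OASL and IRF1, both CD133-high arrays lay below both CD133-low arrays (26.4% of such genes). OASL, an OAS relative without enzyme activity, had log2 ratios of -0.56 and -0.05, and IRF1, a transcription factor of the type II response, had -0.00 and -0.48 in E-cadherin-low and E-cadherin-high cells.

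The median log2 CD133 ratio of the 21 measured members was 0.73 in E-cadherin-low and 0.14 in E-cadherin-high cells, against 0.00 for all measured genes in either pair. Of the 21, 14 were positive and 5 negative among E-cadherin-low cells, and 12 positive and 7 negative among E-cadherin-high cells. Of all measured genes, 48.4% were positive in the first pair and 45.9% in the second. Restricted to the 14 members above the floor on all arrays, the medians were 0.76 and 0.24, against -0.01 and -0.01 for all such genes. At least 2-fold higher in the E-cadherin-low pair were 6 members (8.11% of all measured genes), and in the E-cadherin-high pair 4 (5.04%). None was at least 2-fold lower in either pair (4.27% and 3.24%).

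**Figure D3:**
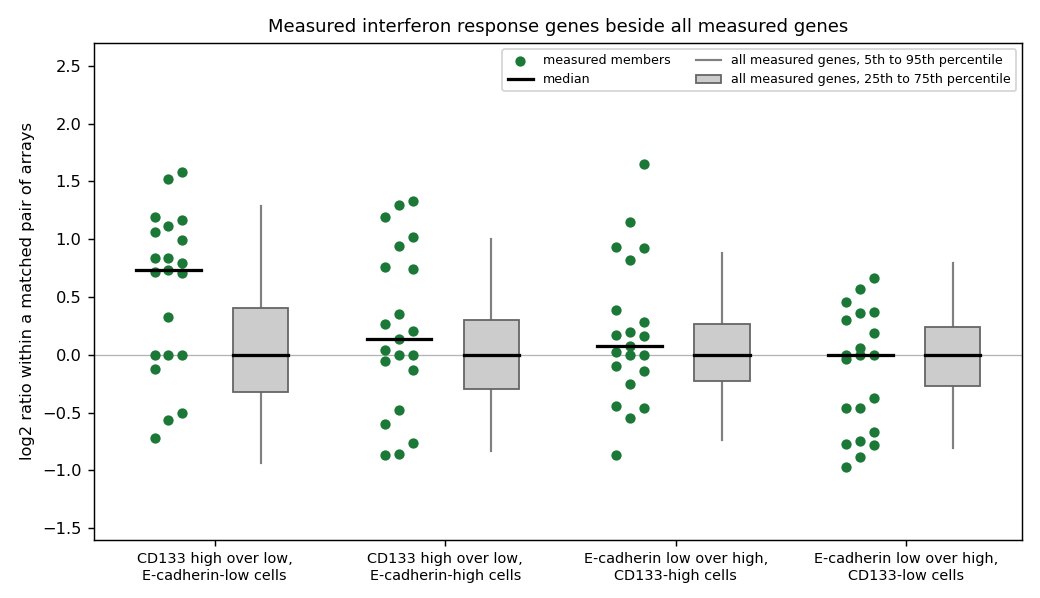
Log2 ratios of the 21 measured members (points, with their median) in each of the 4 matched pairs, beside the 5th, 25th, 50th, 75th and 95th percentiles of 14083 measured genes. The median of the members is 0.73 and 0.14 for CD133 in E-cadherin-low and E-cadherin-high cells, and 0.08 and 0.00 for E-cadherin in CD133-high and CD133-low cells.

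An additive limma fit of both markers over all measured genes, with 1 residual degree of freedom, called 0 of the 21 members in either comparison after Benjamini-Hochberg adjustment over 14083 genes. It called 27 genes higher and 28 lower with CD133 (0.192% and 0.199%). Without adjustment, 6 members had p under 0.05 for CD133 in this limma fit, where 16.7% of all measured genes did. The lowest adjusted p of a member was 0.0882, for ISG20, with IFI6 at 0.103 and USP18 at 0.107. The same limma fit with the prior variance allowed to follow mean signal, a setting added after both results had been seen, again called 0 members, and 185 genes higher and 104 lower (1.31% and 0.738%). ISG20 then had an adjusted p of 0.0631, IFI6 of 0.0643 and USP18 of 0.101 by limma, and 8 members had an unadjusted p under 0.05 (18.1% of all genes). On simulated arrays the fit without the trend called none of the planted changes in most random draws, and the fit with it called part of them in each, so a count of 0 members from either says little. All planted changes were larger than the CD133 change fitted to any member, so changes of the members' size were not covered. The fit with the trend also called unchanged genes in these simulations, in numbers that varied widely between draws, so its calls over all genes are uncertain. In both fits the only residual of a gene is the difference of its CD133 ratio between the E-cadherin states. The p-values of limma for either marker therefore rest on that difference and on a prior variance drawn from all genes. They do not rest on replicate error.

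Signals of other genes moved with CD133 on the same arrays. Of 3 named leukocyte markers, PTPRC was higher in CD133-high cells in both pairs. It read 1102 and 1246 on the CD133-high arrays against 505.0 and 345.6 on the CD133-low arrays. CD3E was above the floor on 1 array alone, at 62.5 in E-cadherin-high CD133-low cells, and CD14 lay below it on every array. The summed signal, most of it that of PTPRC, was 1165 and 1283 on the CD133-high arrays against 533.8 and 414.3 on the CD133-low arrays. Of 5 fibroblast markers, LUM and DCN were at least 2-fold higher in both pairs, COL1A1 had log2 ratios of 0.26 and 0.35 in E-cadherin-low and E-cadherin-high cells, COL1A2 was above the floor on the CD133-high arrays alone, PDGFRB stayed under the floor, and the sum was 4122 and 2970 on the CD133-high arrays against 1827 and 1966 on the CD133-low arrays. Both sums add signals of different probe sets, so the brightest weigh most, COL1A1 and LUM among the fibroblast markers. The part of these markers in the member ratios was not tested. PROM1, the gene for CD133, read at most 29.7, below the floor on all arrays, so the CD133 status rests on the reporter sort. Of the epithelial markers, EPCAM, KRT7, KRT8 and KRT18 lay above the floor on all arrays, and KRT19 read at most 16.7, below it on all arrays.

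The E-cadherin comparison asks which genes go with the mesenchymal state. No member was at least 2-fold higher in E-cadherin-low than in E-cadherin-high cells in both pairs (0.476% of all measured genes), and none was at least 2-fold lower (0.54%). At 1.5-fold there were 0 in either direction too (1.78% and 1.83%). Within the single pair of CD133-high cells, 2 members, IFI16 and IFI27, were at least 2-fold higher (3.81%) and 0 lower (2.53%), and within the pair of CD133-low cells there were 0 in either direction (2.63% and 2.87%). Over the measured members the median log2 ratio was 0.08 among CD133-high and 0.00 among CD133-low cells, with 12 positive and 7 negative in the first pair and 8 positive and 10 negative in the second. Of all measured genes, 48.4% were positive in the first of these pairs and 43.8% in the second. CDH1, the gene for E-cadherin, followed the sort with log2 ratios of -4.00 and -2.75. The limma fit without the trend called 0 members here and 0 genes in either direction (0.0% of all measured genes). With the trend it called 0 members, and 0.0639% of all genes higher and 0.0852% lower. The lowest adjusted p of a member for E-cadherin by limma was 0.701 without and 0.734 with the trend, both for USP18, and 1 and 0 members had an unadjusted p under 0.05, where 6.82% and 6.92% of all measured genes did.

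**Figure D4:**
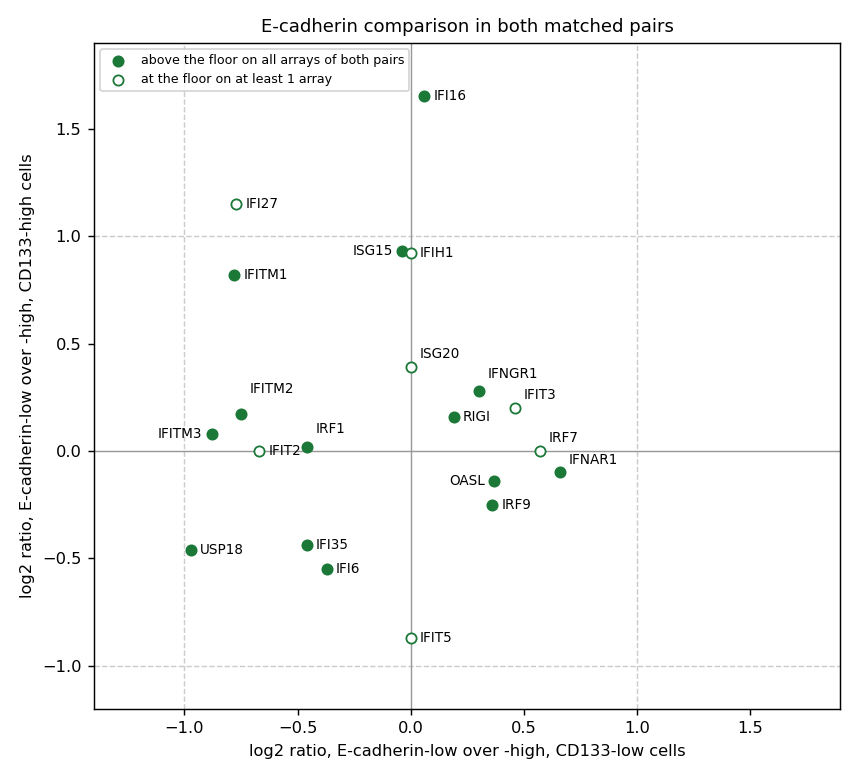
Log2 ratio of E-cadherin-low over E-cadherin-high cells among CD133-low cells (horizontal axis) and among CD133-high cells (vertical axis) for the 21 measured members. Open points were at the floor on at least 1 array, and dashed lines mark 2-fold. No member lies beyond 2-fold on both axes, and IFI16 and IFI27 lie above 2-fold among CD133-high cells.

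IFI16, a nuclear sensor of DNA, passed 2-fold in the pair of CD133-high cells, and its probe sets differed in the other pair. The representative probe set read 280.6 in E-cadherin-low and 89.7 in E-cadherin-high cells among CD133-high cells, and 141.3 in E-cadherin-low and 135.6 in E-cadherin-high cells among CD133-low cells. A second probe set read 297.5 in E-cadherin-low and 117.3 in E-cadherin-high cells among CD133-high cells, and 144.5 in E-cadherin-low and 69.6 in E-cadherin-high cells among CD133-low cells, which gives 1.34 and 1.05 as log2 ratios. Both E-cadherin-low arrays lay above both E-cadherin-high arrays by either probe set. The third lay below the floor on all arrays.

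By probe set rather than by gene, the second probe set of IFI16 was the 1 of 30 member probe sets above a floor that was at least 2-fold higher in E-cadherin-low cells in both pairs (0.384% of 32551 probe sets), and 0 were lower (0.402%). In the CD133 comparison 3 of the 30 were higher (1.85%) and 0 lower (0.952%).

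IFI16 was also the 1 member of 14 above the floor on all arrays in which both E-cadherin-low arrays lay above both E-cadherin-high arrays (12.0% of such genes), and in 0 members did they lie below (14.0%). USP18, IFI6 and IFI35 had lower signals in E-cadherin-low cells in both pairs without reaching 2-fold. Their log2 ratios among CD133-high and CD133-low cells were -0.46 and -0.97 for USP18, -0.55 and -0.37 for IFI6 and -0.44 and -0.46 for IFI35.

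IFNGR1, a chain of the receptor for interferon gamma, read 2438 in E-cadherin-low CD133-high, 1938 in E-cadherin-low CD133-low, 2005 in E-cadherin-high CD133-high and 1578 in E-cadherin-high CD133-low cells, so that all 4 of its ratios lay between 0.28 and 0.35 on the log2 scale. Its 1 probe set not marked as shared read at most 37.9, below the floor on all arrays. IFNAR1, a chain of the type I receptor, had 4 probe sets above the floor on all arrays whose ratios lay on both sides of 0 in each comparison. Its representative probe set read 498.6, 821.3, 534.6 and 520.6 on the 4 arrays in the order just used. IRF7, the factor that amplifies the type I response, was above the floor in E-cadherin-low CD133-low cells alone, at 85.2, and read 58.4, 3.4 and 31.8 in E-cadherin-low CD133-high, E-cadherin-high CD133-high and E-cadherin-high CD133-low cells.

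**Figure D5:**
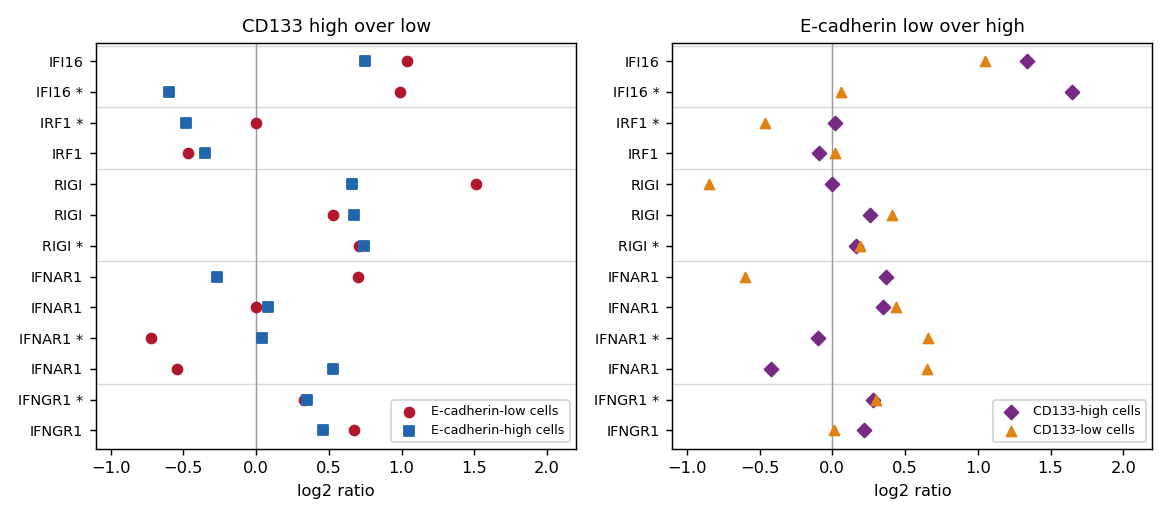
Log2 ratios of each probe set above the floor on all 4 arrays, for the 5 members with more than 1 such probe set, in the CD133 comparison (left) and the E-cadherin comparison (right). Asterisks mark the representative probe set. The 3 probe sets of RIGI lie above 0 in both CD133 pairs, while the 4 of IFNAR1 lie on both sides of 0.

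The size of the CD133 ratio in E-cadherin-low cells could be set beside that in E-cadherin-high cells, as a description that uses all 4 arrays and leaves no error. The difference of the 2 log2 ratios, E-cadherin-low minus E-cadherin-high, had a median of 0.40 over the 21 measured members, pairs at the floor included, and of 0.03 over all measured genes. Among members above the floor on all arrays it was 1.59 for IFI16 and for IFITM1, 0.97 for ISG15, 0.96 for IFITM3 and 0.92 for IFITM2. In the other direction it was -0.76 for IFNAR1 and -0.61 for IRF9. For IFI27, both of whose ratios are bounds at the floor, it was at least 1.92. Over the 14 members above the floor on all arrays the median was 0.25, with 8 positive and 6 negative. Of all such genes, 50.3% were positive.

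The highest signal was that of E-cadherin-low CD133-high cells in 6 of these 14 members (27.8% of such genes), E-cadherin-high CD133-high cells in 4 (20.4%), and each of the CD133-low subpopulations in 2 (24.8% for E-cadherin-low and 27.0% for E-cadherin-high). The lowest signal was that of E-cadherin-low CD133-low cells in 5 of the 14 (27.0%), namely IFI6, IFI35, IFITM2, IFITM3 and USP18. It was that of E-cadherin-high CD133-high cells in 4 (20.0%), E-cadherin-high CD133-low cells in 3 (23.3%) and E-cadherin-low CD133-high cells in 2 (29.7%).

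Other genes of the pathway were examined as lists. Of 8 interferon ligand genes with a named probe set, 7 stayed under the floor on every array, IFNB1 at 3.7 to 4.0 among them, and IFNL2 read 67.5 in E-cadherin-high CD133-low cells with 36.5, 51.5 and 37.5 in E-cadherin-low CD133-high, E-cadherin-low CD133-low and E-cadherin-high CD133-high cells. Among 12 measured genes for other receptor chains, JAK-STAT proteins and their inhibitors, 0 were at least 2-fold higher or lower in both pairs of either comparison. The shares over all measured genes were 2.45% higher and 1.12% lower for CD133, and 0.476% and 0.54% for E-cadherin. A count of 0 in 12 genes says little beside such shares. The median CD133 ratio of these 12 genes was 0.20 in E-cadherin-low and 0.00 in E-cadherin-high cells.

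The signalling chain itself was detected in all 4 subpopulations. JAK1, a kinase of both receptor types, read 3313 in CD133-high cells against 3362 in CD133-low cells of the E-cadherin-low state, and 2733 in CD133-high cells against 2975 in CD133-low cells of the E-cadherin-high state. IFNAR2, IFNGR2, JAK2 and TYK2 were above the floor on all arrays too. IFNAR2, the second chain of the type I receptor, read 878.0 in E-cadherin-low and 448.0 in E-cadherin-high cells among CD133-high cells, and 675.6 in E-cadherin-low and 592.7 in E-cadherin-high cells among CD133-low cells.

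Of 28 measured genes among 46 other interferon-stimulated genes, 1 was at least 2-fold higher in CD133-high cells in both pairs and 0 were lower, near the shares of 2.45% and 1.12% over all genes. This was SHFL, a protein that blocks ribosomal frameshifting, with 716.2 in CD133-high cells against 319.9 in CD133-low cells of the E-cadherin-low state and 838.5 in CD133-high cells against 414.5 in CD133-low cells of the E-cadherin-high state. The median CD133 ratio of this list was 0.02 in E-cadherin-low and 0.26 in E-cadherin-high cells. The larger CD133 median of the members in E-cadherin-low cells was therefore not seen in the second list of induced genes. Of 6 measured genes for nucleic acid sensing, and of 6 for other interferon regulatory factors, 0 met the rule in either comparison, with median CD133 ratios of -0.57 and 0.02 for sensing and 0.02 and 0.05 for the factors. The shares over all measured genes lay between 0.476% and 2.45%, so a count of 0 in 6 genes says little.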

How the data were processed

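The series holds 1 array for each of 4 sorted subpopulations of the PC14 line. The deposited values are linear intensities, one for each probe set. Per the submitters' processing notes the tool was MAS5, with no version named there. A trimmed mean of 500.1 was found on every array, so the authors' intensities had been scaled within arrays.

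Of 54675 probe sets, 41097 had 1 gene symbol in the platform annotation, 1801 had several and were used for no gene, and 11777 had none here. Current symbols came from RefSeq by gene ID, matched for 41043. Signals below the 50th percentile of the non-control probe sets of an array were set to it. Log2 ratios were taken within matched pairs that differ in 1 sorted marker. A pair at the floor on both arrays had a ratio of 0, and a pair at the floor on 1 array gives a bound. A gene was counted at 2-fold or more in the same direction in both pairs, which share no array. This rule is no test. All 33 members were accounted for, with values for those counted and for the families described together, and of the other lists only counted genes, ligands, receptor chains and JAK kinases were named. The members, lists and rules were chosen with earlier results of these data known.

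Protein identities, though planned, were not computed, since no protein sequences were used here. Alternatives covered the normalization, the floor, the fold threshold, the choice of probe set and an additive limma fit. Its first result differed from an earlier analysis of these data, and a variance trend was then tried and is given beside it as an addition made after seeing both. The scripts were tested on simulated data from several random draws. The number of arrays limits the precision. Tools were limma 3.58.1 in R 4.3.3, and Python 3.11.15 with pandas 2.3.3, numpy 2.4.6, matplotlib 3.10.9 and scipy 1.17.1.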

Additional observations from a re-analysis of the deposited data

Results flagged for a closer look

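The CD133 ratio of 3 members went in opposite directions in the E-cadherin-low and E-cadherin-high pairs, by at least 1.5-fold in each, a limit set after the values had been seen, and this difference was not tested. The share of all genes at that limit was not computed. Opposite signs of any size occurred in 6 of the 21 measured members (28.6%), near the share of 30.6% over all measured genes. For IFI16 the log2 ratio was 0.99 in E-cadherin-low and -0.60 in E-cadherin-high cells by its representative probe set, while its second probe set had 1.04 and 0.75. For IFI27 the ratios were 1.06 and -0.86, both bounds. For IFITM1 they were 0.73 and -0.87. The E-cadherin ratios of IFI27 were 1.15 among CD133-high and -0.77 among CD133-low cells, and those of IFITM1 0.82 and -0.78. They come from the same 4 arrays and are no separate observation.

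A signal above the floor on all arrays was also present in 2 probe sets that the annotation gives to a member and another gene, and that no comparison used. The probe set of IFITM1 and IFITM2 read 148.7 in E-cadherin-low CD133-high, 66.4 in E-cadherin-low CD133-low, 129.8 in E-cadherin-high CD133-high and 239.0 in E-cadherin-high CD133-low cells, with CD133 log2 ratios of 1.16 and -0.88 in E-cadherin-low and E-cadherin-high cells. These are of the same signs as those of IFITM1. The probe set of IRF9 and RNF31 read 129.0, 167.0, 212.3 and 170.7 on the 4 arrays in the same order, with CD133 log2 ratios of -0.37 and 0.31, while the probe set of IRF9 alone had 0.72 and 1.33.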

How the results depend on the processing

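The count of 3 members higher in CD133-high cells in both pairs (2.45% of all measured genes) was 2 after quantile normalization (2.21%), with the floor at the 65th percentile (2.08%) and with the mean over probe sets (1.81%). It was 3 with equal array medians (2.63%) and without shared probe sets (2.42%). IFI6 was counted under each of these 5 alternatives. The count was 6 of 32 with no floor (4.57% of all genes), 5 of 31 when the floor was the 25th percentile (3.37%), 6 of 21 at 1.5-fold (6.63%), 0 at 3-fold (0.675%) and 0 in the additive limma fit, both as planned and with the variance trend, which was added after seeing the data. The genes that limma called with CD133 numbered 55 without the trend and 289 with it, and with E-cadherin 0 and 21. Lower members numbered 1 of 32 with no floor (3.57%) and 0 under the other alternatives. The shares over all genes there lay between 0.199% (limma as planned) and 3.93% (1.5-fold), so these counts of 0 say little. In the E-cadherin comparison, 3 of 32 members were higher and 2 lower with no floor (3.42% and 2.54% of all genes), and 1 of 31, IRF7, was higher when the floor was the 25th percentile (335 of 18572 genes). Signals under the 50th percentile then enter as values. The median CD133 ratio of the members, averaged over both pairs, was 0.43 and ranged from 0.36 to 0.53 over 7 alternatives. By pair, it ranged from 0.62 to 0.79 in E-cadherin-low cells and from 0.07 (25th percentile floor) to 0.31 (no floor) in E-cadherin-high cells, where the value was 0.14. The median E-cadherin ratio was 0.04, and -0.04 with the mean over probe sets. The causes were not tested. No called member changed direction.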
